A study of Homo sapiens with 27 samples.

Results

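The genes described here encode immediate early transcription factors and 1 companion protein: EGR1, KLF6, ATF3, BHLHE40, FOSL1, JUNB and IER3. Of 9 genes sought by symbol, these 7 were found among the 10470 genes of the expression table. JUN and IER2 were not analysed here. The set was drawn up because its members move in opposite directions over the 9 groups of the study, EGR1 downwards and KLF6 with others upwards. The levels of the 7 genes and their differences between groups are therefore given as a description, with no test.

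Immediate early genes are transcribed within minutes of growth factor or stress signals, without new protein synthesis. The EGR1 promoter is a textbook target of serum response factor (SRF) with its ETS partners downstream of the kinase ERK, and the EGR1 protein activates growth, differentiation and feedback genes. KLF6 is a zinc finger factor that binds GC-rich promoters, and ATF3 and BHLHE40 are stress-inducible repressors.

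The study depleted the paralogs VPS37A, VPS37B and VPS37C, alternative subunits of the endosomal sorting complex ESCRT-I, in the human colorectal carcinoma line DLD1. Cells were transfected with small interfering RNAs (siRNAs) and collected after 72 h, and their RNA was measured by amplicon sequencing with the Ion AmpliSeq human transcriptome panel. Untransfected cells (NT) and cells given a combination of non-targeting siRNAs (siCTRL) served as references. The knockdowns were of 1 paralog (siVPS37A, siVPS37B, siVPS37C), of a pair (siVPS37AB, siVPS37AC, siVPS37BC) or of all 3 (siVPS37ABC), with 1 siRNA sequence per paralog throughout. Each of the 9 groups had 3 libraries, called biological replicates by the labels and numbered by batch, so p-values measure only the spread between these samples. All knockdowns were compared with the same 3 siCTRL libraries.

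Levels are given in TPM, parts of a library total of 1000000. Differences are on the log2(TPM + 1) scale with their standard error (SE), both from limma fitted to the 27 libraries together, over the 6458 genes that averaged 10 TPM or more, and all 7 members were among them. For genes outside the set, rose, fell and called mean a Benjamini-Hochberg adjusted p under 0.05. For the 7 members words such as higher and lower describe levels only. In bulk RNA, fewer cells that express a gene and less of its RNA per cell cannot be told apart.

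The control regions of EGR1 and KLF6 are shown because these 2 genes name the contrast for which the set was drawn up. Each window is the 250 bases before the gene's start in RefSeq (GRCh38.p14), written on the gene's own strand. The table held such a window for 5 of the 7 members, not for FOSL1 or IER3. The EGR1 window lies at chr5:138465229-138465478 on the plus strand, and capitals mark CArG boxes, the SRF motif. The KLF6 window lies at chr10:3785210-3785459 on the minus strand. Capitals there mark the E-box CACGTG, a motif of BHLHE40 and other bHLH proteins, and a match to the EGR1 motif GCGNGGGCG.
EGR1: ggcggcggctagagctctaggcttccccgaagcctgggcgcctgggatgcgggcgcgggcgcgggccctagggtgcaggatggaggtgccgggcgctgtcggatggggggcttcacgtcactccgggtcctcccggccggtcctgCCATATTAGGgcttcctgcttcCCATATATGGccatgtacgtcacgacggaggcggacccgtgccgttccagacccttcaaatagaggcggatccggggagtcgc
KLF6: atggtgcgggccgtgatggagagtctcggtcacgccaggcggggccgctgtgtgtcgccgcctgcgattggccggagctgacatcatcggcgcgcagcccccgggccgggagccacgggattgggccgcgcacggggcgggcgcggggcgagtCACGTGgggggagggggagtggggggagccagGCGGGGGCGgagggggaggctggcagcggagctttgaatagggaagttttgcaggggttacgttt

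The EGR1 window held 2 CArG boxes, starting 105 and 83 bases before the start, and the letters TGACG, the core of the cAMP response element, at 135 and 66 bases. A match to the EGR1 motif lay at 198 bases. In the KLF6 window the E-box lay at 97 bases and the EGR1 motif at 65 bases, where it overlaps the GC box GGGCGG at 61 bases. Another GC box lay at 116 bases. Searched on both strands, a CArG box was found in 1.16% of 35116 promoter windows of this length, TGACG in 21.2%, the EGR1 motif in 8.42%, CACGTG in 6.35% and GGGCGG in 42.6%. The KLF6 window held no CArG box and the EGR1 window no CACGTG. These matches describe letters only, and binding was not measured.

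The targeted transcripts checked the labels first: they stood at 3.35 to 28.7% of siCTRL in the groups meant to lack them. VPS37A was at 5.54 to 9.11% and VPS37B at 3.35 to 7.42%, but VPS37C at 21.6 to 28.7%. VPS37C was thus the least depleted, which limits the reading of steps that add its siRNA. Of 11 epithelial markers 8 were in the table and 7 averaged 10 TPM or more, while the leukocyte markers CD14 and CSF1R stayed under that level. Markers of fibroblasts and endothelium were not analysed here. The epithelial sum was 8320 to 9517 TPM in siCTRL and 10100 to 11520 TPM in siVPS37ABC, and its part in the results was not tested. Not every marker in the sum was higher: CDX2 went from 154.5 TPM in siCTRL to 63.4 TPM in siVPS37ABC. Sequencing depth is unknown, and the number that ends each library description, 88 in siCTRL replicates 1 and 2, was never 88 in those replicates of a knockdown, so in these replicates that number and depletion cannot be told apart. With it as a term the log2 difference of siVPS37ABC from siCTRL was -3.22 for EGR1 and 1.69 for KLF6.

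EGR1 was lowest where VPS37A and VPS37B were depleted together. Its level in siVPS37ABC was 28.6, 15.4 and 13.6 TPM in replicates 1, 2 and 3, against 198, 117 and 41.9 TPM in siCTRL. In siVPS37AB it was 35.4, 18.8 and 22.6 TPM. Every library of these 2 knockdowns lay below every siCTRL and NT library, the latter at 189, 112 and 78.6 TPM. The mean was 16.1% of siCTRL in siVPS37ABC and 21.5% in siVPS37AB.

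The other knockdowns left EGR1 at intermediate levels that overlapped the controls. It was 73.1, 35.7 and 59.3 TPM in siVPS37A, 80.4, 74.7 and 33.4 TPM in siVPS37B, and 90.6, 73.4 and 38.5 TPM in siVPS37C. The pairs with VPS37C gave 69.1, 38.9 and 36.9 TPM (siVPS37AC) and 90.8, 52.7 and 29.7 TPM (siVPS37BC). These 5 groups lay side by side, with means from 48.3 to 67.5 TPM, and neighbours in the order overlapped. From lowest to highest mean the order was siVPS37ABC, siVPS37AB, siVPS37AC, siVPS37A, siVPS37BC, siVPS37B, siVPS37C, siCTRL and NT, and only siVPS37AB and siVPS37AC, among neighbours, did not overlap.

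The log2 differences of EGR1 from siCTRL were -2.38 ± 0.47 in siVPS37ABC and -1.96 ± 0.47 in siVPS37AB, and lay between -1.08 and -0.63 in the other knockdowns. Compared within batches, EGR1 was lower than siCTRL in 20 of 21 pairs of libraries, the exception being siVPS37A in batch 3 (0.49). The 21 pairs share 3 siCTRL libraries and are not independent of each other. The batches differed in size: the difference in siVPS37ABC was -2.75 and -2.85 in batches 1 and 2 and -1.55 in batch 3, where siCTRL itself was low. The size of the difference depended on the siCTRL libraries. Without siCTRL replicate 1, the highest, it was -1.89 in siVPS37ABC and -1.47 in siVPS37AB, and without siCTRL replicate 3, the lowest, -2.996 and -2.57.

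KLF6 was high in the 4 knockdowns that included VPS37A. It was 34.7, 30.7 and 43.6 TPM in siVPS37A and 30.2, 32.2 and 29.9 TPM in siVPS37AC. It was higher again in siVPS37AB, at 56.5, 46.7 and 67.2 TPM, and in siVPS37ABC, at 62.1, 65.8 and 69.5 TPM. The siCTRL libraries stood at 20.7, 17.3 and 18.4 TPM and the NT libraries at 19.6, 17.6 and 19.8 TPM, all below every library of these 4 groups.

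Depletion without VPS37A left KLF6 at levels that overlapped the controls. Its range was 15.8 to 22.5 TPM in siVPS37B and 17.4 to 20.5 TPM in siVPS37C. In siVPS37BC it was 22.6, 23.9 and 19.6 TPM, so that replicates 1 and 2 lay above every control library and replicate 3 did not. The order of means therefore formed 3 steps: siVPS37C, siCTRL, NT, siVPS37B and siVPS37BC (18.7 to 22.0 TPM), then siVPS37AC and siVPS37A (30.7 and 36.3 TPM), then siVPS37AB and siVPS37ABC (56.8 and 65.8 TPM). Neighbours within a step overlapped and those across a step did not.

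The log2 differences of KLF6 from siCTRL were 0.90 ± 0.15 in siVPS37A, 0.68 ± 0.15 in siVPS37AC, 1.53 ± 0.15 in siVPS37AB and 1.76 ± 0.15 in siVPS37ABC. The differences were 0.02, 0.00 and 0.22 in siVPS37B, siVPS37C and siVPS37BC. KLF6 was higher than siCTRL in 12 of 12 same-batch pairs with a VPS37A siRNA and in 5 of 9 without one, among them 3 of 3 in siVPS37BC. EGR1, in contrast, was lower in 9 of 9 pairs without a VPS37A siRNA. In batch 3 these differences of EGR1 were only -0.12 to -0.49, and these groups overlapped the controls. All such pairs share 3 siCTRL libraries, so the counts are a description.

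**Figure D1:**
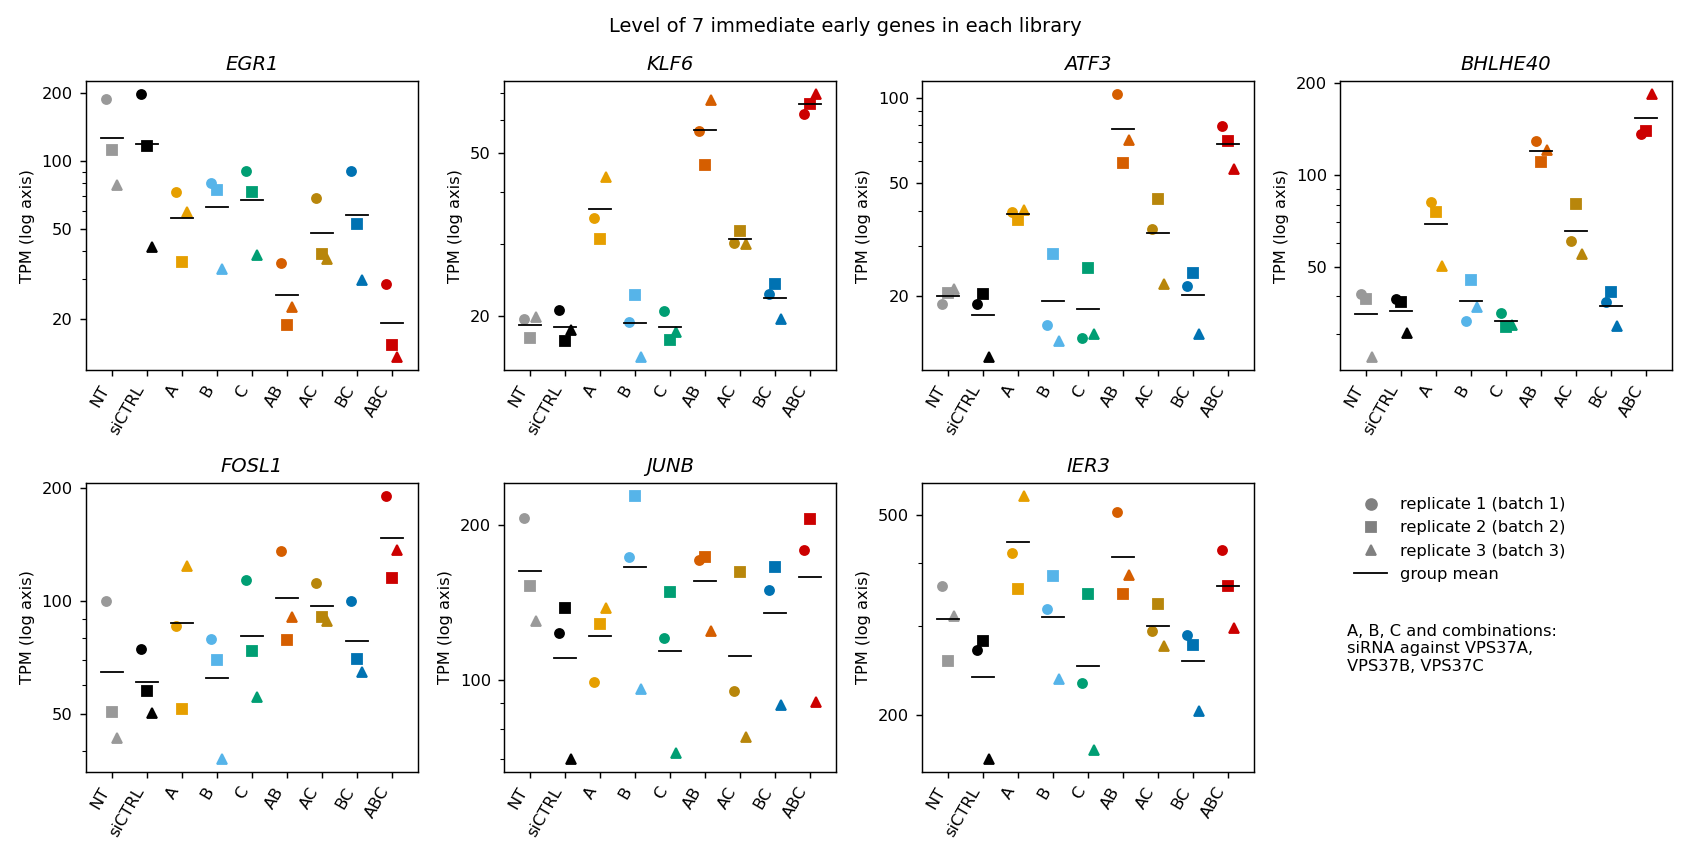
Level of the 7 genes in TPM (log axis) in each of the 27 libraries, by group. Markers give the replicate, which is also the batch, and lines the group mean: KLF6, ATF3 and BHLHE40 stand above both controls wherever VPS37A was depleted, while EGR1 is lowest in siVPS37AB and siVPS37ABC and highest in batch 1 in each of the 9 groups.

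ATF3, a stress-induced bZIP repressor that dimerises with JUN proteins, followed the pattern of KLF6. It stood at 18.6, 20.3 and 12.1 TPM in siCTRL, and at 103, 59.0 and 71.0 TPM in siVPS37AB and 79.7, 70.4 and 55.9 TPM in siVPS37ABC. In siVPS37A it was 39.5, 37.1 and 40.1 TPM and in siVPS37AC 34.3, 44.0 and 22.0 TPM. All 12 libraries with a VPS37A siRNA exceeded every siCTRL and NT library, whereas siVPS37B, siVPS37C and siVPS37BC overlapped them.

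The log2 differences of ATF3 were 1.176 ± 0.27 in siVPS37A, 0.91 ± 0.27 in siVPS37AC, 2.12 ± 0.27 in siVPS37AB and 1.97 ± 0.27 in siVPS37ABC. Over 16 alternatives they ranged from 0.88 to 1.34 in siVPS37A, 0.41 to 1.17 in siVPS37AC, 1.54 to 2.43 in siVPS37AB and 1.47 to 2.10 in siVPS37ABC. The smallest of each came with the library description number as a term.

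BHLHE40, a bHLH repressor that also acts in the circadian clock, had the pattern most like that of KLF6. It was 39.0, 38.3 and 30.2 TPM in siCTRL, 129.6, 110.4 and 121 TPM in siVPS37AB, and 136.9, 139.4 and 184 TPM in siVPS37ABC. In siVPS37A it was 81.8, 75.5 and 50.3 TPM and in siVPS37AC 60.8, 80.4 and 55.04 TPM. As for ATF3, every library with a VPS37A siRNA lay above every control library, and the 3 other knockdowns overlapped the controls.

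The differences of BHLHE40 were 0.91 ± 0.19 in siVPS37A, 0.84 ± 0.19 in siVPS37AC, 1.73 ± 0.19 in siVPS37AB and 2.06 ± 0.19 in siVPS37ABC. Over 17 alternatives they ranged from 0.77 to 1.12, 0.68 to 0.95, 1.55 to 1.89 and 1.81 to 2.20 in the same order. In siVPS37B, siVPS37C and siVPS37BC they were 0.10, -0.10 and 0.05.

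FOSL1, the AP-1 subunit FRA1 and a long-lived output of ERK signalling, was highest in siVPS37ABC. It was 191, 115 and 137 TPM there, above all siCTRL (74.8, 57.9 and 50.6 TPM) and NT libraries (100.2, 50.9 and 43.3 TPM), with a difference of 1.25 ± 0.33. In siVPS37AB it was 136, 78.7 and 91.1 TPM, above siCTRL but overlapping NT, with a difference of 0.71 ± 0.33. With the library description number as a term these differences were 0.75 and 0.11. In siVPS37A the values were 86.0, 51.7 and 124 TPM, so that replicate 2 lay within the siCTRL range and the others above it.

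JUNB, the AP-1 subunit that can restrain JUN, and IER3, which affects ERK signalling and cell survival, did not stand clear of both controls in any knockdown. JUNB was 123, 138 and 70.1 TPM in siCTRL and 179, 205 and 90.5 TPM in siVPS37ABC, and its libraries overlapped the controls in all 7 knockdowns. Its difference was 0.49 ± 0.34 in siVPS37ABC and 0.55 ± 0.34 in siVPS37B. Taking NT as the reference turned these to -0.10 and -0.04. IER3 was 269, 281 and 163 TPM in siCTRL, 420, 356 and 545 TPM in siVPS37A and 507, 348 and 380 TPM in siVPS37AB.

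The differences of IER3 from siCTRL were 0.91 ± 0.24 in siVPS37A, 0.81 ± 0.24 in siVPS37AB and 0.63 ± 0.24 in siVPS37ABC, and their size depended on the reference. The NT libraries stood at 361, 256 and 315 TPM and overlapped each knockdown, and against NT the 3 differences were 0.49, 0.40 and 0.22. Leaving out siCTRL replicate 3, the lowest, brought them to 0.66, 0.56 and 0.38, and a term for the library description number to 0.64, 0.28 and 0.18.

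**Figure D2:**
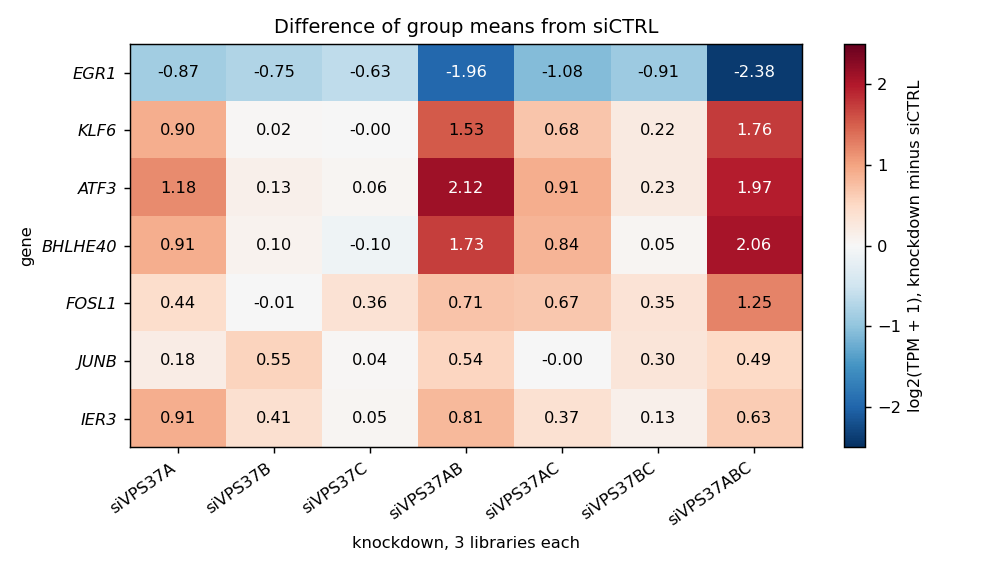
Difference of group means from siCTRL on the log2(TPM + 1) scale for each gene (rows) and knockdown (columns, n = 3 libraries each), with red for higher and blue for lower. EGR1 is negative in all 7 columns, from -0.63 to -2.38, while KLF6, ATF3 and BHLHE40 exceed 0.6 only in the 4 columns with VPS37A.

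The median difference over the 7 members was 1.25 in siVPS37ABC and 0.91 in siVPS37A, against 0.03 and 0.05 over all tested genes. Since the members were chosen on these groups, nothing is read from these medians.

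Each knockdown was also compared with those that lacked 1 of its siRNAs. From siVPS37A to siVPS37AB, KLF6 was higher by 0.63 ± 0.15, BHLHE40 by 0.82 ± 0.19 and ATF3 by 0.94 ± 0.27, while EGR1 differed by -1.09 ± 0.47. From siVPS37A to siVPS37AC, KLF6 differed by -0.22 ± 0.15 and EGR1 by -0.21 ± 0.47. From siVPS37AB to siVPS37ABC the differences were 0.22 ± 0.15 for KLF6 and -0.42 ± 0.47 for EGR1.

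Where VPS37A was depleted on top of the others, KLF6 and BHLHE40 were higher from each starting point. From siVPS37BC to siVPS37ABC the differences of KLF6, BHLHE40 and ATF3 were 1.54 ± 0.15, 2.01 ± 0.19 and 1.74 ± 0.27, and that of EGR1 was -1.47 ± 0.47. From siVPS37B to siVPS37AB KLF6 differed by 1.51 ± 0.15, and from siVPS37C to siVPS37AC by 0.69 ± 0.15, with BHLHE40 at 0.95 ± 0.19 in the latter. Depleting VPS37B on top of VPS37A and VPS37C also went with more KLF6 (1.07 ± 0.15), BHLHE40 (1.22 ± 0.19) and ATF3 (1.06 ± 0.27). Over 12 alternatives the KLF6 difference ranged from 1.30 to 1.598 from siVPS37BC to siVPS37ABC, and from 0.54 to 0.77 from siVPS37C to siVPS37AC.

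The pair siVPS37AB exceeded the sum of its single knockdowns by 0.61 ± 0.21 for KLF6, 0.72 ± 0.27 for BHLHE40 and 0.82 ± 0.38 for ATF3. For EGR1 it differed from the sum by -0.34 ± 0.67 and for FOSL1 by 0.28 ± 0.46. For JUNB and IER3 the departures were -0.20 ± 0.48 and -0.50 ± 0.34. In siVPS37AC the departures of KLF6, BHLHE40 and ATF3 were -0.22 ± 0.21, 0.04 ± 0.27 and -0.32 ± 0.38. In siVPS37BC they were 0.20 ± 0.21, 0.06 ± 0.27 and 0.05 ± 0.38. That of IER3 was -0.58 ± 0.34 in siVPS37AC and -0.33 ± 0.34 in siVPS37BC. The SE of a departure from a sum is larger than that of a simple difference.

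The controls were also set against each other. In siCTRL against NT EGR1 differed by -0.26 ± 0.47 and KLF6 by -0.02 ± 0.15, and JUNB (-0.59 ± 0.34) and IER3 (-0.41 ± 0.24) were the most different.

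Libraries of 1 group differed far more in EGR1 than in KLF6. The standard deviation within groups on the log2 scale was 0.68 for EGR1, larger than that of 99.9% of tested genes, and 0.17 for KLF6, larger than that of 22.3%. The median of all tested genes was 0.21. FOSL1 (0.46), JUNB (0.49), ATF3 (0.37) and IER3 (0.33) also varied more than at least 90.8% of genes did, and BHLHE40 stood at 0.25. The batches shared part of this spread: EGR1 was highest in batch 1 in 9 of 9 groups and lowest in batch 3 in 7, and JUNB was lowest in batch 3 in 8. The mean deviation of EGR1 from its group mean was 0.61, -0.08 and -0.53 in batches 1, 2 and 3. The SE of the members come from the fit without the batch as a block, so they include this spread between batches.

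The set was chosen for opposite directions over the groups, so negative relations of EGR1 with other members over group means restate that choice. Over the 9 group means, Pearson's r of EGR1 was -0.90 with KLF6, -0.90 with BHLHE40, -0.91 with FOSL1, -0.86 with ATF3, -0.55 with IER3 and -0.27 with JUNB. Within groups, with the group means removed from the 27 libraries, it was 0.37 with KLF6, 0.32 with BHLHE40, 0.82 with FOSL1, 0.53 with ATF3, 0.75 with IER3 and 0.60 with JUNB. So a library with more EGR1 than its own replicates also tended to have more FOSL1 and IER3.

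For FOSL1 the relation within groups was 0.84 by Spearman's rho, 0.87 (r) without the 2 libraries farthest from the median in EGR1, and 0.68 (r) with the batch means removed too. For KLF6 these values were 0.34, 0.35 and 0.65, and for BHLHE40 0.28, 0.22 and 0.04, so that little relation was left there once the batch was removed. Conversely, KLF6 and BHLHE40 were nearly parallel over group means (r = 0.99) and showed almost no relation within groups (r = 0.06). These coefficients are descriptions over points that share libraries, controls and a fixed library total.

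**Figure D3:**
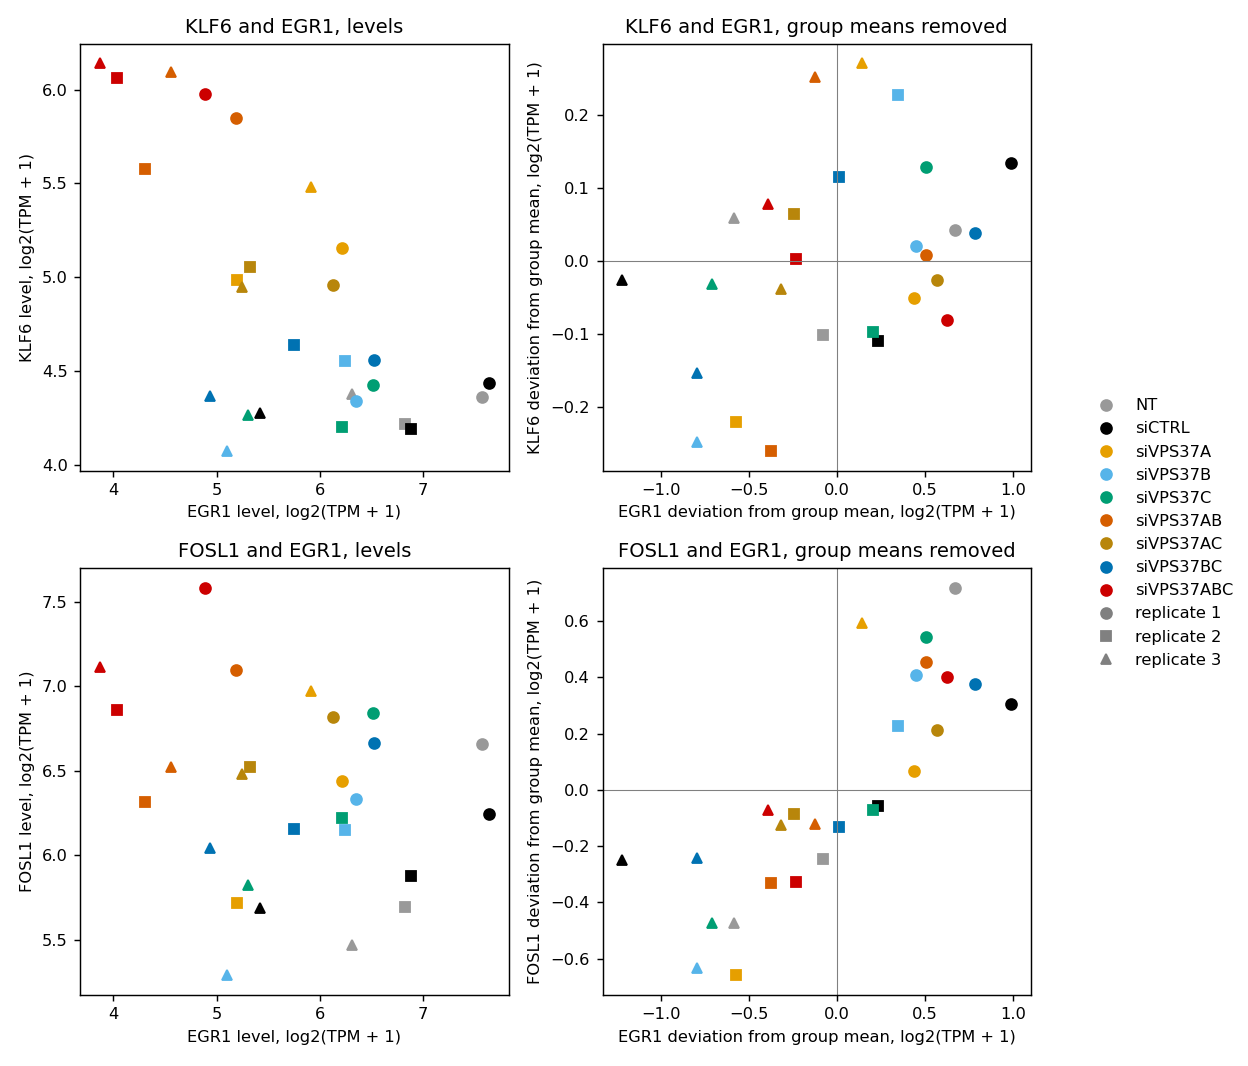
EGR1 (horizontal) against KLF6 (top) and FOSL1 (bottom) in 27 libraries, as levels (left) and as deviations from the group mean (right), on the log2(TPM + 1) scale. Levels of FOSL1 and EGR1 run in opposite directions across group means (r = -0.91), and their deviations run together (r = 0.82).

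FOS, the classic AP-1 partner of JUN and like EGR1 a target of SRF, was low and varied with batch. It was 32.1, 36.8 and 2.98 TPM in siCTRL, 21.3, 20.5 and 3.52 TPM in NT, and 3.73, 4.41 and 3.84 TPM in siVPS37ABC. The first 2 replicates of siVPS37ABC were far below their controls and the third was not. Its difference was -1.78 ± 0.70 (adjusted p = 0.0716, limma), and with the batch as a block adjusted p was 0.00136. Without siCTRL replicate 3 it was -2.83 (adjusted p = 0.00297, limma). FOS was also called with the library description number as a term (-2.79), with a pseudocount of 8 (-1.17) and without batch 3 (-2.81). No other alternative called it, NT as reference and quantile normalization among them.

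NAB2, a corepressor that binds EGR proteins and is itself an EGR1 target, was lower than siCTRL in 21 of 21 same-batch pairs. Those pairs share 3 siCTRL libraries. NAB2 stood at 35.9, 49.2 and 38.6 TPM in siCTRL, 17.1, 30.7 and 17.96 TPM in siVPS37AB, and 15.6, 24.4 and 14.3 TPM in siVPS37ABC. It fell by 0.92 ± 0.22 in siVPS37AB (adjusted p = 0.00497, limma) and by 1.17 ± 0.22 in siVPS37ABC (adjusted p = 2.68e-04, limma). All 16 alternatives kept the call in siVPS37ABC. In siVPS37AB the call was lost without batch 1 (-0.86) or without batch 3 (-0.85). NAB2 was also lower in each siCTRL library than in each NT library (50.9 to 56.6 TPM). EGR2 and EGR3, the paralogs of EGR1, had means of at most 1.05 TPM in any group and were below the filter. In the fit without a filter they differed by -0.13 ± 0.15 (adjusted p = 0.593, limma) and 0.20 ± 0.16 (adjusted p = 0.429, limma) in siVPS37ABC.

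The rest of the pathway was read from 7 lists with 114 genes, of which 99 were in the table and 63 tested. The lists were drawn up with earlier results of these data known. Their counts beside the shares of all genes are therefore a description and test no response of a pathway. In siVPS37ABC 27 of the 63 rose and 7 fell, where 13.6% of all tested genes were called higher and 8.32% lower. In siVPS37AB 23 rose and 4 fell, beside 11.2% and 3.61% of all genes. In siVPS37A 3 rose and none fell, beside 1.19% and 0.635%, and in siVPS37AC 3 rose and 1 fell, beside 3.07% and 1.33%. In siVPS37B none rose and 3 fell, beside 0.929% and 0.79%, and in siVPS37BC none rose and 3 fell, beside 0.635% and 0.65%. None was called in siVPS37C, where 0.496% of all genes were called in either direction. These calls are limma's. At an unadjusted p under 0.05, 1 gene was lower in siVPS37A, 5 were higher in siVPS37B and 3 in siVPS37BC, and 4 were lower and 0 higher in siVPS37C.

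The balance of higher and lower calls over all genes depended on the scaling. Under quantile normalization 765 genes were called higher and 753 lower in siVPS37ABC, against 880 and 537 with the values as deposited, and 520 and 449 in siVPS37AB, against 723 and 233. In siVPS37AC the counts were 114 and 126 against 198 and 86, and in siVPS37A 48 and 59 against 77 and 41. For the 63 list genes they were 25 and 7 in siVPS37ABC and 18 and 4 in siVPS37AB. With the batch as a block 12 list genes were called higher in siVPS37A and 8 lower in siVPS37AB, beside 288 and 486 of all 6458 genes. The median of the 63 genes in siVPS37ABC was 0.30, against 0.03 for all tested genes.

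Of 10 other bZIP genes of the AP-1 and MAF families tested, 6 rose in siVPS37ABC and none fell, beside 13.6% and 8.32% of all genes. At an unadjusted p under 0.05 1 was lower, and the list median was 0.73. JUND, the constitutive JUN paralog, rose from 34.5 ± 5.11 to 83.2 ± 9.22 TPM (SD, n = 3), by 1.25 ± 0.16 (adjusted p = 2.36e-06, limma). FOSL2, the FRA2 subunit, rose from 15.2 ± 1.27 to 32.03 ± 6.01 TPM, by 1.01 ± 0.19 (adjusted p = 2.62e-04, limma). The small MAF proteins, which lack an activation domain, rose as well, MAFG by 1.14 ± 0.17 and MAFK by 1.08 ± 0.20. In siVPS37ABC these 4 genes were called in all 16 alternatives. In siVPS37A MAFG was called at 0.70 ± 0.17 (adjusted p = 0.0312, limma), a call kept in 5 of 16 alternatives. It was lost without siCTRL replicate 1 (0.63) or 3 (0.63) or siVPS37A replicate 1 (0.72) or 3 (0.59).

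Of 15 genes of ERK feedback and output, 10 rose in siVPS37ABC and 1 fell, beside 13.6% and 8.32% of all genes, with a list median of 0.70. The genes named here are those of smallest p, and the 1 that fell is not among them. DUSP5, the nuclear phosphatase specific for ERK, rose by 2.31 ± 0.20 (adjusted p = 5.65e-09, limma), by 2.36 ± 0.20 in siVPS37AB and by 1.16 ± 0.20 in siVPS37A. DUSP10, a phosphatase of JNK and p38, rose by 1.87 ± 0.17 in siVPS37ABC. ERRFI1, an inhibitor of the EGF receptor, rose by 1.41 ± 0.27 and PHLDA1 by 0.75 ± 0.16. In siVPS37A, HBEGF, a ligand of the EGF receptor, rose by 1.15 ± 0.22 (adjusted p = 0.00567, limma), a call lost without siCTRL replicate 3 (1.00) or siVPS37A replicate 1 (0.93).

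Of 7 other KLF and SP factors tested, 2 rose in siVPS37ABC, KLF11 by 0.78 ± 0.20 (adjusted p = 0.00624, limma) and KLF4 by 0.62 ± 0.16 (adjusted p = 0.00787, limma). With 13.6% of all genes called higher there and a list median of 0.06, this count is too small to read as a result about the family. Without siCTRL replicate 3 KLF4 was at 0.51 (adjusted p = 0.054, limma). Of 12 other immediate early transcription factors tested 3 rose, JUND, FOSL2 and the mRNA decay factor ZFP36, and 1 fell, ID2, an inhibitor of bHLH proteins. Their median was 0.09, and the count lower was near the 8.32% of all genes, so nothing is read from these counts about the class. ZFP36 (1.175 ± 0.40) lost its call without siCTRL replicate 3 (0.78) or siVPS37ABC replicate 1 (0.93) or 2 (1.20). The call was also lost with NT as reference (0.55) and with the library description number as a term (0.40). Quantile normalization (1.15) and the omission of batch 2 (1.37) removed it too. ID2 (-0.87 ± 0.25) lost its call without siCTRL replicate 2 (-0.74) or 3 (-0.78), siVPS37ABC replicate 1 (-0.58) or batch 2 (-0.85).

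The targets of SRF, its MRTF coactivators and YAP were split. Of 13 tested, 4 rose and 4 fell in siVPS37ABC, beside 13.6% and 8.32% of all genes. SRF itself was at 0.18 ± 0.15 (adjusted p = 0.423, limma). The matricellular genes CTGF and CYR61 fell by 1.83 ± 0.30 and 1.61 ± 0.28, and FHL2, a LIM-domain cofactor, rose by 1.11 ± 0.21. Against NT these 3 were not called, at -0.53, -0.53 and 0.37, beside controls that differed. CTGF was 41.4 ± 16.2 TPM in siCTRL and 16.3 ± 7.22 TPM in NT (SD, n = 3), and CYR61 was 179 ± 36.8 and 87.8 ± 36.8 TPM.

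ATF3 is also a target of the stress factor ATF4. Of 7 other genes of that pathway tested, 4 rose in siVPS37ABC and none fell, beside 13.6% and 8.32% of all genes. At an unadjusted p under 0.05 5 were higher and 0 lower, and the list median was 0.86. TRIB3, a pseudokinase, rose by 0.86 ± 0.14 (adjusted p = 5.88e-05, limma) and SESN2, a sestrin, by 1.13 ± 0.19 (adjusted p = 7.36e-05, limma). PPP1R15A, a phosphatase subunit that reverses eIF2 alpha phosphorylation, rose by 1.44 ± 0.45 (adjusted p = 0.0209, limma) and DDIT4, an inhibitor of mTORC1, by 1.09 ± 0.33 (adjusted p = 0.019, limma). The calls of PPP1R15A and DDIT4 were kept in 11 of 17 alternatives each. PPP1R15A lost its call without siCTRL replicate 3 (1.04) or siVPS37ABC replicate 1 (1.11), and DDIT4 without siCTRL replicate 3 (0.67) or siVPS37ABC replicate 1 (0.93) or 2 (1.0008). Both lost it with NT as reference (1.10 and 0.74) and with the library description number as a term (0.81 and 0.55). The other three, named after their values were seen, were not called. ATF4 itself was at 0.17 ± 0.13 (adjusted p = 0.392, limma), its target ASNS at 0.06 ± 0.32 (adjusted p = 0.916, limma) and CHAC1 at 0.77 ± 0.29 (adjusted p = 0.0578, limma). CHAC1 was called with the batch as a block, without siCTRL replicate 1 (1.05) or siVPS37ABC replicate 3 (0.98), and without batch 1 (0.83). It was called in no other alternative. In siVPS37A SESN2 was at 0.68 ± 0.19 and not called (adjusted p = 0.0545, limma). It was called there with the batch as a block (adjusted p = 0.019, limma) or without siCTRL replicate 2 (0.87). The same held with NT as reference (0.91) and with the library description number as a term (1.06). The other alternatives did not call it.

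**Figure D4:**
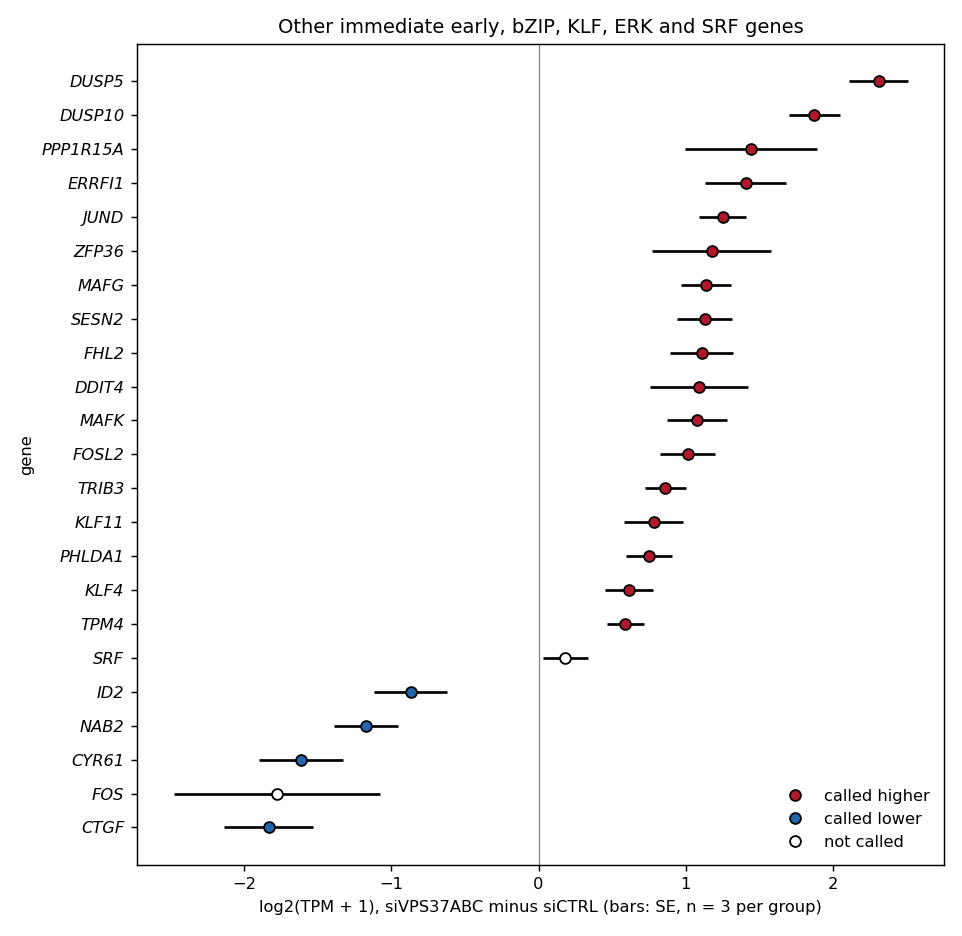
Difference between siVPS37ABC and siCTRL (log2(TPM + 1), points with SE bars, n = 3 libraries per group) for genes outside the set of 7 from the 7 lists. DUSP5 (2.31) stands highest and CTGF (-1.83) lowest, and FOS, lower by 1.78 with the widest bar, was not called.

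Genes with the most similar or most opposite pattern were sought among those that averaged 50 TPM or more and had a range of group means of at least 1 on the log2 scale. Over the 9 group means, EGR1 was most like AXIN2, a feedback inhibitor of WNT signalling (r = 0.975), PSIP1 (0.97), HADH (0.97), the intestinal factor CDX2 (0.97) and HIST1H2AJ (0.95), of 207 genes. It was most opposite to MKNK2, a kinase downstream of ERK and p38 (-0.98), KRT80 (-0.97), ZFAND5 (-0.97), IL32 (-0.96) and S100A11 (-0.96). KLF6 was most like BHLHE40 (0.99), S100P (0.99), NAMPT (0.99), IL32 (0.98) and GLA (0.98), of 208 genes. It was most opposite to the histone genes HIST1H1B (-0.98), HIST1H2AG (-0.98), HIST1H3I (-0.97) and HIST1H3J (-0.97) and to CDX2 (-0.97). KLF6 itself averaged under 50 TPM and was kept as the gene compared. ATF3, with r = 0.988 to KLF6, was below the filter and was not ranked. The filter used the average over all groups. BHLHE40 (35.8 TPM in siCTRL) and IL32 (17.8 TPM) thus passed only through groups where they were higher. These ranks are a description only. The values of HIST1H2AJ, HIST1H2AG, HIST1H3I and HIST1H3J are uncertain one by one, because copies of these genes share almost all of their sequence. CDX2 went from 154 TPM in siCTRL to 63.4 TPM in siVPS37ABC, and IL32, a proinflammatory cytokine, from 17.8 to 141 TPM.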

How the data were processed

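The labels' protocols give RNA from DLD1 cells and Ion AmpliSeq libraries. Per the submitters' processing notes, hg19, HTSeq 0.6.0 and DESeq2 1.18.1 were used, with no role stated. The deposited table is named as normalized counts, but each column sums to 1000000, so its values were taken as TPM in that sense, and the authors' reads and depths are not given in the sources used here. Empty lines (2157) were left out.

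The analysis used log2(TPM + 1), a scale that understates changes of low genes, and the 6458 genes that averaged 10 TPM or more. A limma 3.58.1 model in R 4.3.3 with 9 group means, an intensity trend and 18 residual degrees of freedom gave differences, SE and Benjamini-Hochberg adjusted p-values per comparison (threshold 0.05). It was tested on simulated data. The labels' batch equals the replicate number. Same-batch libraries of different groups deviated together (mean r = 0.355 over 108 pairs, -0.175 over 216 pairs of different batches), so the model was also fitted with the batch as a block.

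Members and lists were chosen with earlier results of these data known. No call is given for a member, because all 9 groups were used to choose them. The members, FOS, JUND, FOSL2, EGR2, EGR3, NAB2 and SRF were always to be named, with up to 4 genes of smallest p per list and the 5 genes most and least like EGR1 and KLF6, some left out for length. Alternatives were the block, a term for the library description number, a pseudocount of 8, quantile normalization, no filter or one at 50 TPM, only the groups compared, NT as reference, and the omission of each library or, added after seeing the data, of a whole batch. Sequences and figures used Python 3.11.15 with matplotlib 3.10.9, pandas 2.3.3 and numpy 2.4.6.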

Additional observations from a re-analysis of the deposited data

How the results depend on the processing

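The 30 member differences from siCTRL that exceeded the standard deviation within groups kept their direction in 493 of 501 alternative values. The exceptions were JUNB and IER3. With NT as reference JUNB turned to -0.0353 in siVPS37B, -0.0514 in siVPS37AB and -0.10 in siVPS37ABC, and IER3 to -0.0012 in siVPS37B and -0.0396 in siVPS37AC. With the library description number as a term JUNB was -0.44 in siVPS37AB and -0.37 in siVPS37ABC, and IER3 -0.0746 in siVPS37AC. With the library description number as a term EGR1 in siVPS37ABC was -3.22, and 11 list genes were called lower in siVPS37ABC, beside 610 of all 6458 genes. With a pseudocount of 8 KLF6 in siVPS37ABC was 1.46. With a mean of at least 50 TPM 33 list genes were tested. Of these, 10 were called higher and 2 lower in siVPS37AB, beside 252 and 127 of all 2599 genes. In siVPS37ABC 12 of them were called higher, beside 314. With only the groups compared 1 list gene was called higher in siVPS37A, beside 12 of all 6458 genes. With the replicate block 12 list genes were called higher in siVPS37A and 8 lower in siVPS37AB, beside 288 and 486 of all 6458 genes. With NT as reference 8 list genes were called higher in siVPS37A and 2 lower in siVPS37AB, beside 290 and 388 of all 6458 genes. With that reference CTGF in siVPS37B turned to 0.10 and CYR61 in siVPS37AC to 0.0536. Leaving out libraries, list genes called numbered 1 to 5 higher and 0 to 1 lower in siVPS37A, 9 to 22 higher and 2 to 5 lower in siVPS37AB, and 13 to 27 higher and 4 to 10 lower in siVPS37ABC. Calls over all 6458 genes moved as well, with whole batches left out included. They ranged from 12 to 97 higher in siVPS37A, from 218 to 638 in siVPS37AB and from 310 to 865 in siVPS37ABC. Those lower ranged from 3 to 47, from 42 to 271 and from 171 to 597. The cause of these moves was not tested. The block leaves every difference of group means as it is, since each batch holds 1 library of each group. The filters and the fit of only the groups compared do so too, so agreement in direction there was fixed in advance. The members were chosen for their direction over these groups, so the 493 of 501 is a description only. Depth is unknown, so no counting error could be given.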
